A study of Homo sapiens with 44 samples.

Results

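Human pluripotent stem cells grow as an epithelium, and on the way to mesoderm they exchange one cadherin for another. The 10 genes described here report on that change: the cadherins CDH1 and CDH2, the epithelial surface genes EPCAM and CLDN6, the intermediate filament gene VIM, and the transcription factors SNAI1, SNAI2, TWIST1, ZEB1 and ZEB2. They were chosen by symbol, and all 10 were found among the 60499 gene identifiers of the deposited tables. RNA came from 44 culture wells of H1, an established line of human embryonic stem cells, in 12 groups. Pluripotent wells were coated with the laminin LN-521 (3 wells). All other wells were coated with LN-521 and LN-221, and day 0 wells (3) held confluent cells in Nutristem medium. Wells of day 1 and day 3 (3 each) had been given CHIR99021, which inhibits the kinase GSK3 and so activates Wnt signalling, in RPMI medium with insulin-free B27. Day 5 wells (5) had been given IWP2, an inhibitor of Wnt production, from day 3. Day 7 and day 9 wells (5 each) were in the insulin-free medium alone, and wells of day 11 (5) and of days 14, 20, 30 and 90 (3 each) were in RPMI medium with CTS B-27. All wells held cells of this 1 line, and every group from day 1 on shares the coating and CHIR99021, with IWP2 added for all groups after day 3, so the effects of agent, medium and time cannot be told apart.

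CDH1 (E-cadherin) joins epithelial cells through adherens junctions, and CDH2 (N-cadherin) takes its place in many mesenchymal cells and joins heart muscle cells at the intercalated disc. EPCAM is a homophilic surface adhesion protein of epithelia, and CLDN6 is a tight-junction claudin of embryonic epithelia. SNAI1, SNAI2, ZEB1 and ZEB2 are zinc-finger repressors that bind E-box motifs, among them those of the CDH1 gene, and TWIST1 is a basic helix-loop-helix factor. In the embryo these factors act when cells leave the epiblast through the primitive streak as mesoderm, and again when heart cushions, epicardium and neural crest release mesenchymal cells. VIM (vimentin) is the filament protein of mesenchymal cells and is also present in pluripotent cells.

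Levels are given as CPM, a gene's estimated counts per 1e6 counts of its TMM-scaled library, and errors are SD over wells. Total counts ranged from 6937136 to 33498022 per library, so that 3 counts, taken as the lowest readable level, stood for 0.0919 to 0.410 CPM. The pluripotency, mesendoderm and cardiomyocyte markers followed the labels. The summed level of POU5F1, NANOG and SOX2 was 1944 to 1979 CPM in pluripotent wells and 28 to 46 CPM at day 5. TBXT, EOMES and MIXL1, which mark mesendoderm, summed to 739.9 to 1208 CPM at day 1 against 0.965 to 2.28 at day 0. The 5 cardiomyocyte genes TNNT2, MYH6, MYL7, ACTN2 and NKX2-5 summed to 5242 to 9419 CPM at day 7 against 37 to 49.98 at day 3. Markers of other lineages moved in both directions. MESP1, PDGFRA and KDR, of cardiac mesoderm, summed to 173 to 210 CPM at day 0 and 808 to 1132 at day 3. The sum of SOX10, FOXD3 and TFAP2A, of neural crest, fell from 14.2 to 17.2 CPM at day 0 to 0.954 to 6.76 at day 7. That of TP63, KRT5 and TFAP2C, of surface or simple epithelium, fell from 13.4 to 17.1 CPM to 1.19 to 9.58. FOXA2, SOX17, TTR, AFP and APOA1, which mark endoderm, summed to 3.46 to 9.93 CPM at day 0. That sum was 108 to 134 CPM at day 3 and 261 to 1004 CPM at day 7. PECAM1, CDH5, TEK and EGFL7, which mark endothelium, summed to 106.5 to 116 CPM in pluripotent wells, 67.1 to 73.7 at day 0 and 150.3 to 256 at day 7. The part of such cells in the 10 genes was not tested. One day 7 well, replicate 10, stood apart: its pluripotency sum was 48.6 CPM against 4.15 to 6.96 in the other day 7 wells. In bulk RNA, fewer cells of a type and less RNA per cell cannot be told apart.

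RefSeq promoter windows (GRCh38.p14, 300 bases, the last 50 of them from the start site on) were matched by symbol for 5 of the 10 genes. A window each of 4 genes is shown because ZEB1, ZEB2 and CDH2 were among the earliest to rise and CLDN6 was one of the genes that fell. Where a gene has several starts, the window of the outermost one is printed. Capitals mark the E-box hexamers CAGGTG and CACCTG, which are the same motif on either strand and the kind that SNAI and ZEB proteins bind.
ZEB1 (chr10:31318167-31318466, plus strand): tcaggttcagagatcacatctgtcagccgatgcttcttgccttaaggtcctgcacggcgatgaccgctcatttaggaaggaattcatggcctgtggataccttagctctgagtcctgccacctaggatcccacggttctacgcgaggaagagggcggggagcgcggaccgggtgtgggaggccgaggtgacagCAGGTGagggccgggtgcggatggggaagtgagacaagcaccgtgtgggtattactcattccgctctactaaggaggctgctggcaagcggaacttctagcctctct
ZEB2 (chr2:144520070-144520369, minus strand): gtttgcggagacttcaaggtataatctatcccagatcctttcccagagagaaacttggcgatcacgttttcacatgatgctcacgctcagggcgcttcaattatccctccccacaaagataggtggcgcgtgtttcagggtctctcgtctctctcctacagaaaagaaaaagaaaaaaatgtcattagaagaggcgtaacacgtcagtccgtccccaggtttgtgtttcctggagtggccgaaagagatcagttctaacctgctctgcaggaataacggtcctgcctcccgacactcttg
CDH2 (chr18:28177081-28177380, minus strand): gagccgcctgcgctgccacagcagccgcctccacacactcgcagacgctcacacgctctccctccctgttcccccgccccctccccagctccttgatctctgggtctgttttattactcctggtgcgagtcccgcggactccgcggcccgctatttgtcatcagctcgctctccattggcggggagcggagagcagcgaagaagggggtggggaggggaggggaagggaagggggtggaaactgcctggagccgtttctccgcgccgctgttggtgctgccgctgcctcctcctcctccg
CLDN6 (chr16:3018134-3018433, minus strand): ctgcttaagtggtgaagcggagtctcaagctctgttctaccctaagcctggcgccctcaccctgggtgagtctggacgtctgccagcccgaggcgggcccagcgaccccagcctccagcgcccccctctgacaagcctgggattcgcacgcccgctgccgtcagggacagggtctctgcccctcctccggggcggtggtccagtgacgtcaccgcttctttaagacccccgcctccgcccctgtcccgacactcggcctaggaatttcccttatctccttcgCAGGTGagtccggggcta
The ZEB1 window held 1 such hexamer, 57 bases before the start, and the CLDN6 window held 1, which begins at base 33 of the transcript. ZEB2 and CDH2 had none in these windows. Among all 35116 such windows, 20.6% held at least 1, and 3 of the 12 windows of the 5 genes did. ZEB1 has 7 of those 12 windows, and another of them (chr10:31318966-31319265) held 3 of the hexamers. A match of letters describes the window and is no measurement of binding.

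Between day 0 and day 7, CDH2, VIM and all 5 transcription factors rose, CDH1 and CLDN6 fell, and EPCAM did not pass the test. Calls required an edgeR quasi-likelihood p, adjusted by Benjamini-Hochberg over the 22955 genes tested, below 0.05 together with a log2 fold change of 1 or more in size. All 10 genes passed the filter on low counts. In day 7 against day 0, 7 of 10 were called higher and 2 lower, where 28.5% of all genes tested were called, 15.2% higher and 13.3% lower. Step by step, day 0 against pluripotent cells called 2 of 10 (all genes 2.91%, with 2.73% higher and 0.183% lower), both higher. Day 1 against day 0 called 4, all higher (all genes 13.5%, with 3.86% higher and 9.66% lower), and day 3 against day 1 called 6, all higher (all genes 17.8%, with 11.0% higher and 6.80% lower). Day 5 against day 3 called VIM alone, as higher (all genes 10.1%, with 5.75% higher and 4.34% lower), and day 7 against day 5 called VIM alone, as lower (all genes 3.65%, with 2.74% higher and 0.906% lower). Day 90 against day 7 called 1 higher and 4 lower (all genes 29.7%, with 15.1% higher and 14.5% lower). The replicates are wells, so the p-values measure the spread between wells, and comparisons that share a day share its libraries. Each gene's spread was estimated once over all 44 libraries, so the spread among wells of later days enters the tests of early days.

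**Figure D1:**
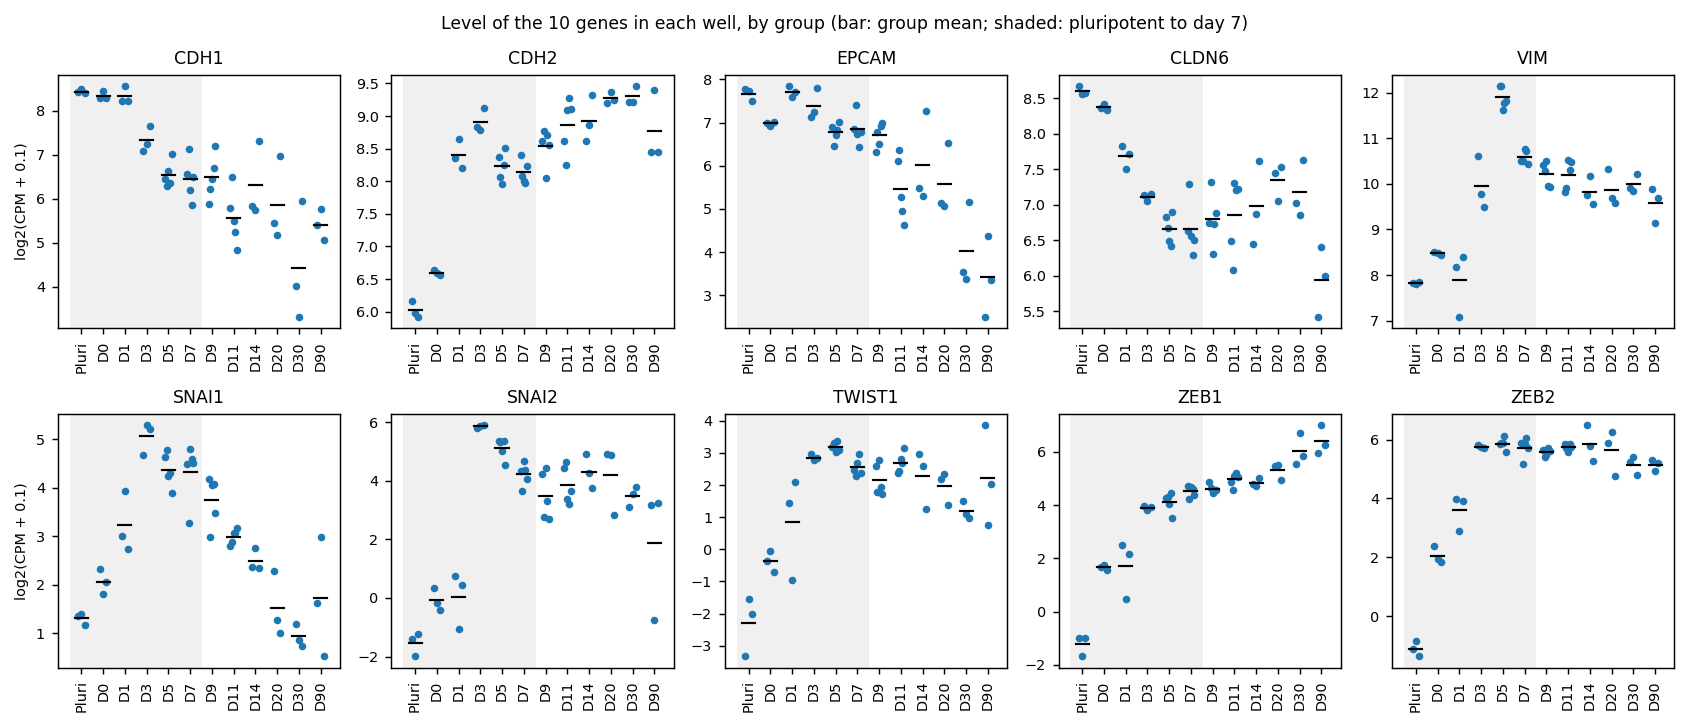
Each panel plots 1 gene as log2(CPM + 0.1) on the vertical axis against the 12 groups, with 1 point per well and a bar at the mean of the log values. CDH2 and the transcription factors are higher at day 3 than in pluripotent cells and stay above the day 0 wells at day 7, while CDH1 holds its level through day 1 and is lower from day 3.

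**Figure D2:**
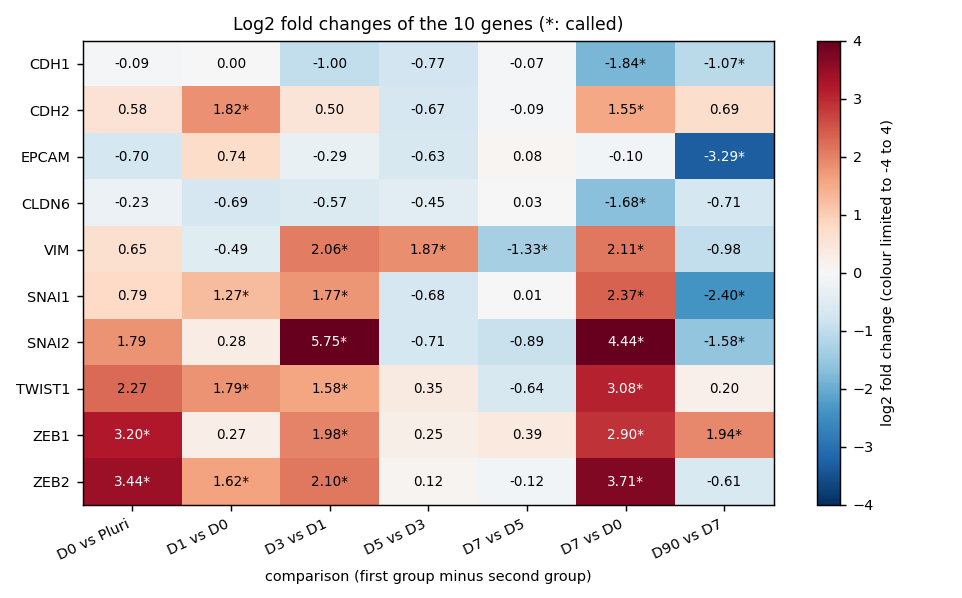
Rows are the 10 genes, columns are the 7 comparisons (first group minus second), and each cell gives the log2 fold change, with an asterisk where the gene was called. The steps up to day 3 hold 12 calls, all of them higher, and CDH1 reaches a call only over the whole stretch to day 7 and again at day 90.

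The cadherins did not move at the same time. CDH1 (chr16:68737225-68835548 in GRCh38, plus strand, a protein-coding gene as are all 10) measured 342, 358 and 336 CPM in the 3 pluripotent wells. At day 0 its wells read 311, 348 and 312 CPM and at day 1 296, 377 and 300.0 CPM. These 3 groups overlapped throughout, and for day 1 against day 0 edgeR gave a log2 fold change of 0.0023 (SE 0.46, adjusted p = 1). CDH1 then read 135, 151 and 202 CPM at day 3, 87.7, 78.8, 98.3, 81.6 and 129 at day 5 and 94.5, 139, 73.3, 57.7 and 89.4 at day 7. All day 3 wells lay below all day 1 wells, with a log2 fold change of -0.996 (SE 0.47, adjusted p = 0.11), which was not called. Neither was the next step, at -0.77 (SE 0.41, adjusted p = 0.21) in day 5 against day 3, nor day 7 against day 5, at -0.07 (SE 0.36, adjusted p = 0.97). Over the whole first week CDH1 fell 3.57-fold, from 324 ± 21.3 to 90.7 ± 30.5 CPM (n = 3 and 5), with a log2 fold change of -1.84 (SE 0.41, adjusted p = 0.00032), and the groups did not overlap.

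CDH2 (chr18:27950966-28177446, minus strand) was the lower cadherin at the start and read 71.2, 63 and 60.5 CPM in pluripotent wells. At day 0 it read 99.7, 96.1 and 94.4 CPM, with every well above every pluripotent well but a log2 fold change of 0.58 (SE 0.23, adjusted p = 0.13), which was not called. At day 1 its wells read 329, 399.9 and 294 CPM, a 3.53-fold rise over day 0 with a log2 fold change of 1.82 (SE 0.23, adjusted p = 2.2e-07). CDH1 had not yet left its starting level in those same wells. CDH2 measured 453, 440.4 and 556 CPM at day 3, 332, 268, 249, 302 and 362 at day 5 and 339, 271, 258, 252 and 299.9 at day 7. Day 3 against day 1 gave 0.503 (SE 0.23, adjusted p = 0.092), and day 5 against day 3 gave -0.67 (SE 0.198, adjusted p = 0.014), which passes on p and stays under the required size. On TPM scaling day 5 against day 3 was called lower, at -1.20 (limma on log2(TPM + 1), adjusted p = 0.044). From day 0 to day 7 CDH2 rose 2.94-fold, with a log2 fold change of 1.55 (SE 0.21, adjusted p = 1.9e-07).

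Within a library, levels of different genes are compared as TPM, which is scaled for transcript length. CDH1 was the more abundant cadherin in pluripotent wells, at 53.2 against 10.7 TPM on average. The log2 ratio of CDH2 to CDH1 TPM was -2.12, -2.41 and -2.49 in the pluripotent wells, -1.61, -1.77 and -1.68 at day 0 and 0.25, 0.17 and -0.0014 at day 1. At day 1 the pair stood nearly level, with CDH2 the higher in 2 of 3 wells. At day 3 the ratio was 2.03, 1.72 and 1.78, so CDH2 led by 3.59-fold at the group mean. It then held at 1.79 ± 0.34 at day 5 (SD, n = 5) and 1.81 ± 0.38 at day 7 (SD, n = 5). Later group means were higher, at 2.16 ± 0.55 on day 9, 3.46 ± 0.89 on day 11, 2.69 ± 0.57 on day 14, 3.58 ± 1.1 on day 20, 4.98 ± 1.21 on day 30 and 3.41 ± 0.204 on day 90. The spread over wells at day 90 was below that of days 5 and 7, and that of the other later groups was above it. The ratio is a description, with no test. Estimated counts in place of TPM gave 1.59 at day 3.

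**Figure D3:**
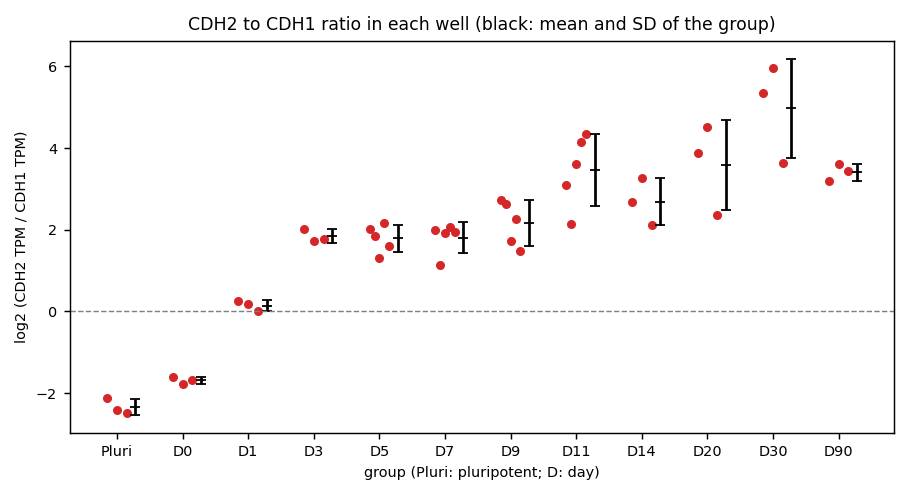
The vertical axis is the log2 ratio of CDH2 to CDH1 TPM within each library, the horizontal axis is the group, red points are wells, and black marks are the group mean with its SD. The mean crosses the dashed line of equal TPM at day 1 (0.14 ± 0.13) and is at 1.84 ± 0.16 by day 3.

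The order of the groups summarises each cadherin. For CDH1 the lowest mean was day 30 (29.4 ± 28.5 CPM), followed by days 90, 11, 20, 14, 7, 9 and 5. Neighbours in that stretch overlapped. Day 3 (163 ± 34.7 CPM) lay clear of day 5 below it, and day 0, day 1 and pluripotent cells lay clear of day 3 above it and overlapped one another. For CDH2, pluripotent cells, day 0 (96.7 ± 2.68 CPM) and day 7 formed the lowest steps, each clear of the one below. The other groups, in the order day 5, 1, 9, 90, 11, 3, 14, 20 and 30, overlapped neighbour by neighbour up to 633 ± 61.7 CPM.

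EPCAM and CLDN6, the other epithelial members, did not follow CDH1 in the same way. EPCAM (chr2:47345158-47387601, plus strand) read 220.3, 212 and 181 CPM in pluripotent wells, 128, 121 and 129 at day 0 and 230.2, 192 and 209 at day 1. The day 0 wells lay below both neighbours in time, though neither step was called: -0.698 (SE 0.46, adjusted p = 0.41) into day 0 and 0.74 (SE 0.46, adjusted p = 0.27) out of it. EPCAM then read 139, 152 and 224 CPM at day 3, 119, 88, 105, 114 and 129 at day 5 and 115, 171, 106, 87 and 110.3 at day 7, and day 7 overlapped day 0, at -0.100 (SE 0.405, adjusted p = 0.87). Because day 0 was itself low, the day 7 mean of 118 ± 31.5 CPM sat near the day 0 mean of 126 ± 4.45 and below the pluripotent mean of 205 ± 20.8 (SD), a pair that was not tested.

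CLDN6 (chr16:3014712-3020071, minus strand) was lower at each sampled time up to day 5. Its wells read 408, 379 and 381 CPM in pluripotent cells, 329, 344 and 323 at day 0, 227, 181 and 210.0 at day 1 and 141, 133 and 142 at day 3. Each of these groups lay wholly below the one before, and none of the single steps was called. Day 5 read 114, 102, 89.7, 85 and 119 CPM and day 7 98.8, 157, 94.1, 78.6 and 90.7 CPM. From day 0 to day 7 CLDN6 fell 3.2-fold, with a log2 fold change of -1.68 (SE 0.25, adjusted p = 6.5e-07). Unlike CDH1 it was already lower at day 1 than at day 0 in every well, at -0.69 (SE 0.28, adjusted p = 0.079), a difference between the genes that was not tested. Exons of CLDN6 overlap TNFRSF12A, a receptor gene on the opposite strand that averaged 31.1 ± 2.47 CPM at day 0 and 29.7 ± 10.9 at day 7 (SD). Whether counting used the strand is not given in the sources used here.

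Among the transcription factors, ZEB1 and ZEB2 rose first, at day 0, in wells still in Nutristem medium. ZEB1 (chr10:31318495-31529814, plus strand) read 0.402, 0.214 and 0.401 CPM in pluripotent wells, on 7 to 11 counts, and 3.12, 3.29 and 2.87 CPM at day 0. ZEB2 (chr2:144364364-144524583, minus strand) went from 0.362, 0.459 and 0.292 CPM, on 8 to 15 counts, to 5.1, 3.73 and 3.49 CPM. Neither pair of groups overlapped, and the rises were 9.17-fold for ZEB1, with a log2 fold change of 3.2 (SE 0.41, adjusted p = 3.6e-06), and 10.8-fold for ZEB2, with 3.44 (SE 0.36, adjusted p = 1.1e-07). With limma both calls were lost on log2(TPM + 1), at 0.69 for ZEB1 (adjusted p = 0.91) and 0.81 for ZEB2 (adjusted p = 0.86), and both were kept on log2(TPM + 0.1), at 2.32 (adjusted p = 0.0079) and 2.25 (adjusted p = 0.0047). ZEB1 also shares exons with its antisense neighbour ZEB1-AS1, which averaged 2.33 ± 0.437 CPM in pluripotent cells and 2.94 ± 0.707 at day 0 (SD), while ZEB2-AS1 was at 0 counts in pluripotent cells and at 0.045 ± 0.0192 CPM at day 0.

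The remaining factors were also above the pluripotent range in every day 0 well but were not called there. TWIST1 (chr7:19020991-19117672, minus strand) had 0 counts in 1 pluripotent well, which allows up to 0.121 CPM, and 0.245 and 0.146 CPM in the others. It read 0.671, 0.865 and 0.518 CPM at day 0, at 2.27 (SE 0.73, adjusted p = 0.055). SNAI2 (chr8:48917604-48921740, minus strand) went from 0.281, 0.153 and 0.328 to 1.17, 0.799 and 0.656 CPM, at 1.79 (SE 0.79, adjusted p = 0.18), and SNAI1 (chr20:49982999-49988886, plus strand) from 2.45, 2.54 and 2.15 to 4.9, 3.39 and 4.04 CPM, at 0.79 (SE 0.41, adjusted p = 0.27). A fit to these 2 groups alone also called TWIST1 (adjusted p = 0.0082) and SNAI2 (adjusted p = 0.0037), and DESeq2 called TWIST1 (adjusted p = 0.011). Coating and confluence changed together between these groups and cannot be told apart.

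On the first day of CHIR99021, ZEB2, SNAI1 and TWIST1 rose with CDH2, and ZEB1 and SNAI2 did not pass the test. ZEB2 reached 15.6, 7.26 and 15.1 CPM, every well above day 0, at 1.62 (SE 0.28, adjusted p = 5.1e-05). SNAI1, a factor of the primitive streak, reached 7.88, 15.2 and 6.6 CPM, again with no overlap, at 1.27 (SE 0.396, adjusted p = 0.018). TWIST1 reached 2.59, 0.418 and 4.14 CPM, which overlapped day 0, at 1.79 (SE 0.58, adjusted p = 0.022). ZEB1 read 5.59, 1.29 and 4.36 CPM, at 0.27 (SE 0.32, adjusted p = 0.62), and SNAI2 1.58, 0.386 and 1.25 CPM, at 0.28 (SE 0.65, adjusted p = 0.84). One well, day 1 replicate 2, held the lowest ZEB1, ZEB2, TWIST1, SNAI2 and VIM of its group and the highest SNAI1, CDH1 and CDH2. Its mesendoderm sum was 1208 CPM against 739.9 and 854 in the others, and the part of cell makeup in these values was not tested. Without that well SNAI1 was no longer called (0.86, adjusted p = 0.17). SNAI1 was also lost without day 0 replicate 2 (adjusted p = 0.071), and TWIST1 was lost without day 0 replicate 1 or 3 or day 1 replicate 1 or 3 (adjusted p = 0.052 to 0.22). On log2(TPM + 1) with limma, CDH2 alone kept its call.

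Days 1 to 3 brought the broadest rise, with all 5 factors and VIM called. SNAI2 made the largest step of the 10 genes in any comparison: from 1.58, 0.386 and 1.25 CPM at day 1 to 55.3, 58.7 and 59.2 at day 3. That is a 53.7-fold rise, with a log2 fold change of 5.75 (SE 0.67, adjusted p = 1.9e-08), and its day 3 wells lay above those of every other group. SNAI1 reached 25.5, 38.9 and 36.9 CPM, its highest mean, at 1.77 (SE 0.39, adjusted p = 0.00062). ZEB2 reached 56.7, 53.5 and 52 CPM, at 2.1 (SE 0.28, adjusted p = 2.8e-07), and ZEB1 15.4, 14.1 and 15 CPM, at 1.98 (SE 0.32, adjusted p = 7.0e-06). In both ZEB genes all day 3 wells lay above all day 1 wells. TWIST1 reached 7.71, 6.7 and 7.02 CPM, at 1.58 (SE 0.54, adjusted p = 0.024). The TWIST1 call was lost without day 1 replicate 1 or 2 or day 3 replicate 1 or 3 (adjusted p = 0.053 to 0.16, log2 fold change 1.07 without day 1 replicate 2). In these wells CDH1 averaged 163 ± 34.7 CPM.

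VIM (chr10:17228259-17237593, plus strand) rose later than CDH2 and peaked at day 5. It read 228, 224 and 231 CPM in pluripotent wells, 363, 358 and 349 at day 0 and 289, 136 and 335 at day 1. At day 3 it read 1572, 875 and 717 CPM and at day 5 4532, 4519, 3155, 3516 and 3611 CPM, and then 1442, 1445, 1748, 1688 and 1378 CPM at day 7. Day 5 overlapped neither day 3 nor day 7. VIM rose 4.16-fold into day 3, at 2.06 (SE 0.28, adjusted p = 3.0e-07), and 3.67-fold into day 5, at 1.87 (SE 0.26, adjusted p = 1.0e-06). It then fell 2.51-fold into day 7, at -1.33 (SE 0.21, adjusted p = 2.3e-05), and stayed 4.32-fold above day 0, at 2.11 (SE 0.26, adjusted p = 2.1e-08). The day 5 wells lay above every other group. The 6 fibroblast and epicardial genes COL1A1, COL3A1, DCN, LUM, WT1 and TCF21 summed to 70.9 to 117 CPM at day 3, 1044 to 3061 at day 5 and 1363 to 3036 at day 7. The ranges of that sum at days 5 and 7 overlapped, and the part of such cells in VIM was not tested.

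From day 3 to day 7 no transcription factor was called in either step. SNAI2 read 40.8, 39.95, 32.5, 40.5 and 23.2 CPM at day 5, below every day 3 well, and 20.1, 12.4, 25.7, 20.8 and 16.5 at day 7. The SNAI2 steps were -0.71 (SE 0.47, adjusted p = 0.34) and -0.89 (SE 0.42, adjusted p = 0.26). SNAI1 read 24.9, 27.5, 18.9, 19.6 and 14.7 CPM at day 5 and 22.2, 9.62, 27.8, 23.9 and 22.8 at day 7, with day 7 against day 5 at 0.01 (SE 0.295, adjusted p = 1). TWIST1 had its highest mean at day 5 (8.98, 9.86, 8.09, 10.3 and 8.33 CPM), clear of days 3 and 7, and read 5.41, 4.71, 6.29, 7.7 and 5.12 CPM at day 7. ZEB1 read 19, 19.5, 16.5, 21.8 and 11.3 CPM at day 5 and 26.4, 18.9, 25.5, 24.2 and 20.8 at day 7. ZEB2 stayed within 35.7 to 70.3 CPM over days 3, 5 and 7.

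Over the week from day 0 to day 7 the 5 factors rose together with no overlap of the groups. The fitted rises were 21.6-fold for SNAI2, 13.1-fold for ZEB2, 8.47-fold for TWIST1, 7.46-fold for ZEB1 and 5.17-fold for SNAI1. Their edgeR adjusted p-values were 3.0e-07, 4.5e-13, 2.3e-05, 1.0e-09 and 3.5e-06 in the same order. Ranked by length-scaled level, the factor with the highest mean TPM was SNAI1 in pluripotent cells (0.923 TPM), SNAI1 at day 1 (4.18), SNAI2 at day 3 (20.6) and ZEB2 at day 5 (11.2) and day 7 (9.09). TWIST1 was at 4.48 TPM at day 3 and 2.72 at day 7, below SNAI1 and ZEB2 on both days. VIM was far above all of them on the same scale, at 1239.5 TPM on day 5.

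ZEB1 was higher at day 90 than at day 7, while SNAI1 and SNAI2 were lower. From 23.1 ± 3.19 CPM at day 7, ZEB1 measured 31.5 ± 5.14 CPM on day 11, 40.5 ± 8.19 on day 20 and 70.01 ± 31.5 on day 30. Its day 90 wells read 61.9, 128 and 76.3 CPM, all above day 7, a 3.83-fold rise at 1.94 (SE 0.26, adjusted p = 1.1e-07). SNAI1 fell 5.29-fold over the same span, to 3.003, 7.86 and 1.34 CPM, at -2.4 (SE 0.39, adjusted p = 3.3e-06), after 7.89 ± 0.817 CPM at day 11 and 1.83 ± 0.327 at day 30. SNAI2 fell to 8.96, 0.487 and 9.41 CPM, at -1.58 (SE 0.52, adjusted p = 0.012). The value of 0.487 CPM is from day 90 replicate 4, and without it SNAI2 was not called (-1.05, adjusted p = 0.081), nor in a fit to these 2 groups alone (adjusted p = 0.069). ZEB2 read 39, 30.7 and 36.7 CPM at day 90 and TWIST1 14.4, 1.6 and 3.98 CPM, and neither was called.

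Between day 9 and day 30, wells of the same day often differed in SNAI2, TWIST1 and ZEB2, and these days were not tested. SNAI2 ranged from 6.44 to 29.9 CPM over those days, TWIST1 from 1.85 to 8.77 CPM and ZEB2 from 26.8 to 89.2 CPM. Depth and RNA integrity differed too. Total counts were 8679308 and 14148880 in day 14 replicates 2 and 6, 6937136 in day 20 replicate 2 and 11715812 in day 30 replicate 10. Their integrity scores were 7.4, 8.2, 8 and 7.4. The other wells of days 14, 20 and 30 had at least 23661479 counts and scores of 8.2 to 10. The part of depth and RNA quality was not tested. At day 20, SNAI2 read 29.9, 29.4 and 6.94 CPM, ZEB2 59.4, 76.2 and 26.8 CPM and TWIST1 4.41, 4.92 and 2.52 CPM, and replicate 3 was the lowest well in all of them. That well was also the highest of its day in CDH1, EPCAM and CLDN6. CLDN6 itself had a higher mean at day 20 (164 ± 28 CPM) than at day 7 (104 ± 30.5 CPM), while EPCAM had a lower one (53.8 ± 33.7 against 118 ± 31.5 CPM). TNFRSF12A, the gene that shares exons with CLDN6, was also higher on average at day 20, at 135 ± 89.7 CPM (SD) against 29.7 ± 10.9, and its part in the CLDN6 values was not tested. Within day 20 the well with the highest CLDN6, replicate 3, had the lowest TNFRSF12A (55.7 CPM). CDH2 read 586, 664 and 605 CPM at day 20 and 597, 597 and 704 CPM at day 30, above all its wells of days 5 and 7.

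CDH1 and EPCAM were lower at day 90 than at day 7. EPCAM fell 9.79-fold from day 7, to 5.56, 20.7 and 10.1 CPM, at -3.29 (SE 0.48, adjusted p = 5.3e-07). CDH1 read 42.3, 54.3 and 33.2 CPM, below every day 7 well, at -1.07 (SE 0.43, adjusted p = 0.042). That CDH1 call was lost in 10 of 18 alternatives, among them RLE scaling (-0.97, adjusted p = 0.062) and the fits without day 7 replicate 1, 4 or 10 or day 90 replicate 2 or 5 (adjusted p = 0.055 to 0.15). CDH2 read 350.2, 674 and 350.3 CPM, at 0.69 (SE 0.198, adjusted p = 0.0042), and its sign turned on TPM scaling, where the lowest value was -0.05. VIM read 951, 563 and 823 CPM, at -0.98 (SE 0.25, adjusted p = 0.0012), just under the required size. In 9 of 18 alternatives VIM was called lower, among them a lane term (-1.05, adjusted p = 0.0014), limma on log2(TPM + 1) (-1.62, adjusted p = 3.2e-05) and the fits without day 7 replicate 1, 4 or 10 or day 90 replicate 2 or 5. CLDN6 read 42.8, 84.3 and 63.9 CPM, at -0.71 (SE 0.26, adjusted p = 0.025). Against TMM, TPM scaling moved the median of all genes by -0.53 in this comparison. KRT5 and TP63, markers of stratified surface epithelium, were called higher at day 90 and came from replicates 2 and 5, with KRT5 at 144 and 85.2 CPM against 1.04 in replicate 4. TFAP2C, the other marker of that list, was called lower, at -1.72 (SE 0.63, adjusted p = 0.025). Replicate 4 had the highest CDH1 and EPCAM of the day 90 wells and an endoderm sum of 128 CPM against 8.74 and 9.24 in the others.

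From day 7 on, single wells stood apart from others of their day in the epithelial genes. At day 7, replicate 10 held the highest CDH1 (139 CPM), EPCAM (171 CPM) and CLDN6 (157 CPM) and the lowest SNAI1 (9.62 CPM), and it is the well with the raised pluripotency sum. Without it day 7 against day 0 still called 9 of the 10 genes. At day 9, replicate 10 also held the highest CLDN6 (159 CPM) and the lowest SNAI1 (7.79 CPM) of its day. Its CDH1 (74.6 CPM) and EPCAM (109.9 CPM) lay within the range of the other day 9 wells, and its pluripotency sum was 6.72 CPM. Both replicate 10 wells were sequenced on lane 4, and the part of lane or replicate number was not tested. At day 11, replicates 1 and 2 had CDH1 at 55.2 and 89.5 CPM, and replicates 5, 6 and 7 at 45.1, 37.8 and 28.5 CPM. EPCAM split the same wells, at 68.5 and 81.9 against 38.8, 31 and 24.8 CPM. RNA integrity scores were 8.6 and 8 in the former wells and 9.2 to 9.5 in the latter. Total counts were 18014203 and 19060126 against 23631168 to 31323325. The part of RNA quality and depth in this split was not tested. The 5 endoderm genes FOXA2, SOX17, TTR, AFP and APOA1 summed to 4495 and 8578 CPM in the former wells and 157 to 170.1 CPM in the latter. The cardiomyocyte sum ran the other way, at 7229.8 and 4681 against 17422 to 18601 CPM. CLDN6 ran opposite to CDH1 there, at 89.9 and 67.4 CPM against 158, 148 and 149 CPM. TNFRSF12A split the same wells the same way as CLDN6, at 25.7 and 18.3 against 56, 43.7 and 46.5 CPM, and its part in the CLDN6 values was not tested.

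The same did not hold on every day. At day 7, replicates 2 and 3 had the highest endoderm sums (1004 and 927 CPM) and the lowest CDH1 (73.3 and 57.7 CPM). At day 9, replicate 4 had the highest CDH1 (146 CPM) and the lowest endoderm sum (469.9 CPM). Day 9 replicate 2 had the highest sum of that day (6097 CPM), with CDH1 at 87.7 CPM. At day 14, replicate 6 had CDH1 at 159 CPM and EPCAM at 155 CPM, against 57.4 and 53.6 CPM of CDH1 in the other wells, yet its endoderm sum of 2400.5 CPM was the lowest of its day. At day 20, replicate 3 had CDH1 at 126 CPM and the highest endoderm sum, 3880.4 CPM. At day 30, replicate 3 had CDH1 at 62.2 CPM with an endoderm sum of 268 CPM, against 16.2 and 9.92 CPM of CDH1 with sums of 39.1 and 20.1. The part of endoderm-like cells, depth and RNA quality in these CDH1 and EPCAM values was not tested.

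**Figure D4:**
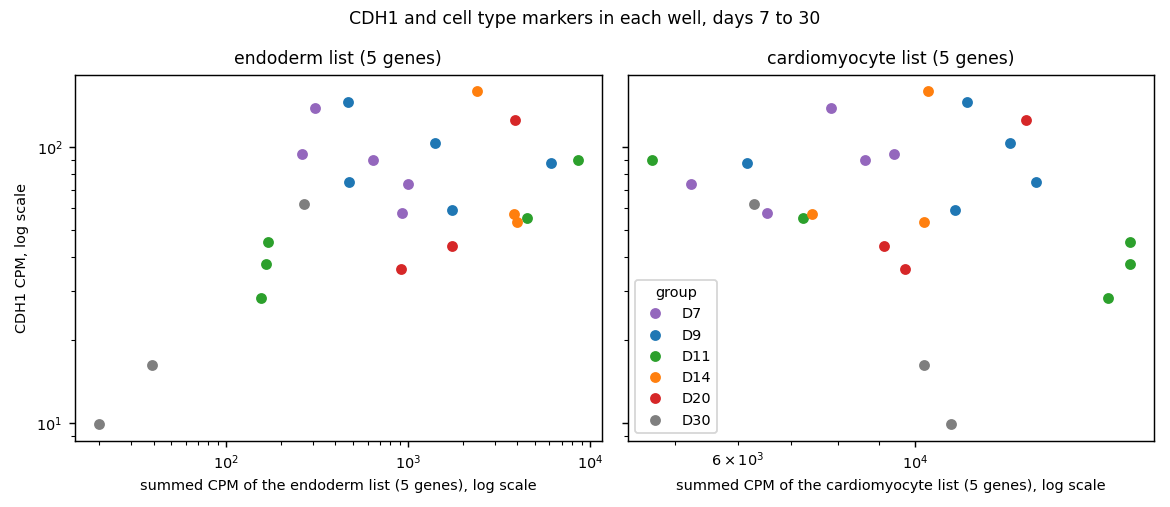
Each point is 1 well of days 7 to 30, coloured by day, with its CDH1 level in CPM on the vertical axis and the summed CPM of the endoderm list (left) or the cardiomyocyte list (right) on the horizontal axis, all on log scales. The 3 day 11 wells with endoderm sums of 157 to 170.1 CPM have the lowest CDH1 of that day. By contrast, the wells with the highest CDH1 of day 9 and of day 14 each have the lowest endoderm sum of their day.

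The genes whose group means most resembled those of a member were found by Pearson's r of log2(CPM + 1) over the 12 groups, among 10387 protein-coding genes. CDH1 was most like EPHA1 (r = 0.978), ZNF66 (r = 0.977), ESRP1 (r = 0.976) and AP1M2 (r = 0.976). ESRP1 is an epithelial splicing regulator and AP1M2 an epithelial sorting adaptor. CDH2 was most like DUSP10 (r = 0.985), PHF10 (r = 0.962), PDE4D (r = 0.957) and TEAD1 (r = 0.954), SNAI1 most like INVS (r = 0.972), POC1B (r = 0.966), INTS3 (r = 0.961) and CEPT1 (r = 0.953), and TWIST1 most like FGF10 (r = 0.978), BMI1 (r = 0.953), TMEM123 (r = 0.947) and SVEP1 (r = 0.946). TEAD1 is a transcription partner of YAP, and FGF10 a growth factor of the second heart field. The 12 points share libraries and are means of 3 to 5 wells, so r is a description.

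Other genes of the cell-adhesion and transition programme were read from 8 lists of 7 to 18 genes, all of which passed the filter. In the list of 16 mesenchymal matrix and surface genes, 4 were called higher at day 0 against pluripotent cells (all genes 2.73%). In day 1 against day 0, 1 was higher and 3 lower, COL1A1 and S100A4 among them (all genes 3.86% and 9.66%). The list's median log2 fold change was -0.67 in that step. At day 3 against day 1, 9 were higher (all genes 11.0%). At day 7 against day 0, 11 were higher and 2 lower (all genes 15.2% higher and 13.3% lower). Its median log2 fold change was 1.64 in the last comparison, beside 0.05 over all genes tested. FN1 (fibronectin) went from 471 ± 27.5 to 11951 ± 3139.9 CPM, a 25.4-fold rise at 4.67 (SE 0.41, adjusted p = 9.2e-12). FN1 and MMP2, a matrix protease, were already called at day 0 against pluripotent cells, at 1.35 (SE 0.37, adjusted p = 0.025) and 1.45 (SE 0.41, adjusted p = 0.031), and both calls were lost without any 1 of the 6 wells. COL5A1 and ITGA5, a collagen chain and a fibronectin receptor subunit, led the rise into day 3, at 3.89 (SE 0.36, adjusted p = 8.6e-11) and 3.55 (SE 0.45, adjusted p = 9.0e-08). ITGA5 fell again into day 5, at -1.68 (SE 0.35, adjusted p = 0.00064), while COL3A1 rose 63.2-fold, at 5.98 (SE 0.76, adjusted p = 2.4e-07). THY1 (CD90) and S100A4 were the 2 called lower at day 7 against day 0, at -2.83 (SE 0.62, adjusted p = 0.00026) and -1.67 (SE 0.29, adjusted p = 1.1e-05). S100A4 was nonetheless among those called higher at day 0 against pluripotent cells and at day 3 against day 1.

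Of 18 epithelial junction and polarity genes, 4 were higher and 2 lower at day 7 against day 0, where 15.2% of all genes tested were called higher and 13.3% lower. Their 6 calls of 18 are near that background, and the median log2 fold change was 0.08 beside 0.05 over all genes tested. TJP3 (ZO-3), a tight-junction scaffold, fell within the first day from 43.1 ± 0.542 to 5.56 ± 0.872 CPM, at -2.95 (SE 0.32, adjusted p = 1.1e-08), and MARVELD3 fell into day 3, at -2.31 (SE 0.29, adjusted p = 5.5e-08). Some genes of desmosomes, which heart muscle also uses, rose. DSP (desmoplakin) went from 132 ± 4.52 to 505 ± 39.9 CPM on the first day, at 1.93 (SE 0.32, adjusted p = 2.5e-05), and PKP2 (plakophilin 2) rose 7.03-fold by day 7, at 2.81 (SE 0.204, adjusted p = 6.2e-14). Among 7 catenins, which tie cadherins to the cytoskeleton, 2 were higher and 2 lower at day 7 against day 0, beside the same 15.2% and 13.3% of all genes. JUP (plakoglobin) rose, at 1.53 (SE 0.17, adjusted p = 2.0e-09), as did CTNNA3, an alpha-catenin of the heart, at 3.53 (SE 0.36, adjusted p = 3.5e-10). At day 90 against day 7, 9 of the 18 junction genes were lower and 1 higher (all genes 14.5% lower and 15.1% higher), with OCLN (occludin) at -2.12 (SE 0.33, adjusted p = 1.9e-06).

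Of 14 epithelial keratin and surface genes, 3 were higher at day 7 against day 0, namely the simple-epithelial keratins KRT8, KRT18 and KRT19, and 4 lower (all genes 15.2% and 13.3%), with a median log2 fold change of -0.62. The other 7 were not called, among them KRT7, a keratin of simple epithelia, at -1.38 (SE 0.67, adjusted p = 0.095). KRT19 went from 69.6 ± 12.4 to 1175 ± 72.7 CPM between days 1 and 3, at 4.08 (SE 0.32, adjusted p = 1.8e-12), in the same step in which SNAI2 and ZEB1 rose. KRT8 rose 5.65-fold in that step, at 2.5 (SE 0.32, adjusted p = 1.3e-07). AP1M2 fell 3.82-fold by day 7, at -1.93 (SE 0.397, adjusted p = 0.00012), and MAL2, a membrane sorting protein, fell 3.14-fold, at -1.65 (SE 0.41, adjusted p = 0.0011). CD24, a surface glycoprotein high in pluripotent cells, fell in the first day from 1904 ± 32.2 to 709 ± 66.1 CPM, at -1.42 (SE 0.33, adjusted p = 0.0014). Of 11 regulators of the epithelial state, 1 was higher and 3 lower in the same comparison, beside the same shares of all genes. The splicing regulators ESRP1 and ESRP2 fell, at -1.54 (SE 0.305, adjusted p = 7.6e-05) and -1.24 (SE 0.26, adjusted p = 0.00017). ELF3 fell 5.12-fold into day 1 and rose 7.9-fold into day 3, at -2.36 (SE 0.49, adjusted p = 0.00043) and 2.98 (SE 0.496, adjusted p = 1.3e-05).

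Of 17 other cadherins, 9 were higher and 0 lower at day 3 against day 1 (all genes 11.0% and 6.80%), with a median log2 fold change of 1.39 beside 0.07 over all genes tested. In day 5 against day 3, 7 were lower and 3 higher (all genes 4.34% and 5.75%). CDH11, a mesenchymal cadherin, went from 59.1 ± 13.9 to 517 ± 45.3 CPM and then to 88.2 ± 9.83 CPM at day 5, at 3.13 (SE 0.49, adjusted p = 5.0e-06) and -2.55 (SE 0.401, adjusted p = 1.1e-05). CDH5, the cadherin of endothelium, rose from 0.53 ± 0.0609 CPM, on at most 17 counts, to 43.2 ± 16.4 CPM by day 7, at 6.34 (SE 0.67, adjusted p = 5.8e-10). It fell 132-fold to day 90, at -7.04 (SE 0.73, adjusted p = 3.6e-10). Its day 90 level was 0.303 ± 0.204 CPM, on at most 10 counts and near the lowest readable level. The endothelial sum of PECAM1, CDH5, TEK and EGFL7, of which CDH5 is itself a part, was 150.3 to 256 CPM at day 7 and 21.2 to 56.8 at day 90. EGFL7 alone of these was not called in day 7 against day 0. Of 14 other claudins, 4 were lower and 0 higher at day 1 against day 0 (all genes 9.66% and 3.86%). CLDN3 was among them, from 10.8 ± 1.53 to 1.46 ± 0.273 CPM, at -2.88 (SE 0.404, adjusted p = 1.3e-06). In day 3 against day 1, 3 were higher and 1 lower (all genes 11.0% and 6.80%). The lower one, CLDN7, fell 4.28-fold, at -2.1 (SE 0.48, adjusted p = 0.00095). In day 5 against day 3, 3 were higher and 2 lower (all genes 5.75% and 4.34%). CLDN3 rose in that step to 10.4 ± 2.36 CPM, at 1.07 (SE 0.35, adjusted p = 0.026). CLDN4 rose to 26.4 ± 6.15 CPM, at 1.56 (SE 0.52, adjusted p = 0.032).

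Of 12 other transcription factors tied to the transition, 4 were higher and 2 lower at day 3 against day 1, where 11.0% of all genes were higher and 6.80% lower. GSC (goosecoid), a factor of the organizer and anterior streak, was at 0.10 ± 0.101 CPM at day 0, on at most 6 counts, and at 19.2 ± 8.93 CPM at day 1, at 7.5 (SE 0.98, adjusted p = 3.6e-07). It was down to 2.28 ± 0.561 CPM at day 3, at -3.07 (SE 0.75, adjusted p = 0.0017), and its highest mean over these days was at day 1. FOXC1, a factor of paraxial and heart mesoderm, rose into day 3 from 1.02 ± 0.289 to 60.5 ± 26.9 CPM, at 5.88 (SE 0.63, adjusted p = 2.6e-09), and fell into day 5, at -2.21 (SE 0.44, adjusted p = 0.00029). KLF8 rose 3.24-fold in the day 3 step, at 1.69 (SE 0.22, adjusted p = 1.4e-07). TCF3, which encodes the E proteins E12 and E47, fell 3.2-fold between day 7 and day 90, at -1.68 (SE 0.15, adjusted p = 1.4e-11).

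**Figure D5:**
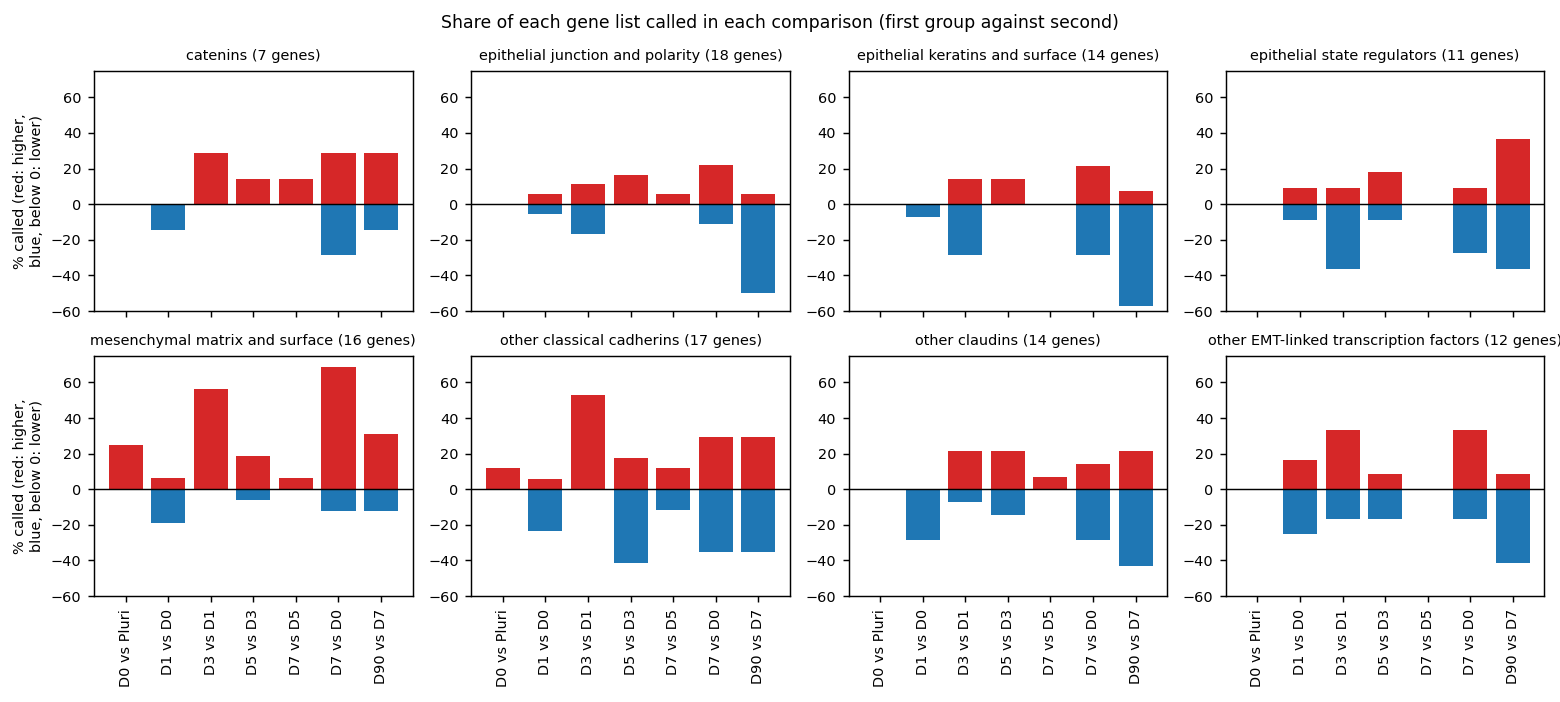
Each panel is 1 gene list, bars above 0 (red) give the percentage of its genes called higher and bars below 0 (blue) the percentage called lower, in each of the 7 comparisons (first group against second). The mesenchymal list has its largest share called higher in day 7 against day 0, and the cadherin list shows a high share of rises at day 3 followed by falls at day 5.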

How the data were processed

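Total RNA of 44 H1 wells was made into stranded libraries and sequenced as paired-end reads, per the labels' protocols. One table deposited by the authors holds unscaled estimated counts for each gene, and 93.8% of its values are whole. They also deposited TPM, scaled for transcript length and library sum, and an RNA integrity score per library (7.4 to 10) with its sequencing lane (5 lanes). The submitters' processing notes name cutadapt, STAR 2.5.2b and RSEM 1.2.31 and the build hg38. Strand use in counting is not given in the sources used here.

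Symbols and coordinates came from GENCODE 29 (GRCh38), which holds 56769 of the 60499 identifiers, and promoter windows from RefSeq (GRCh38.p14). Estimated counts were rounded, filtered with filterByExpr and TMM-scaled, which left 22955 genes. With edgeR 4.0.16 in R 4.3.3, all 44 libraries entered 1 quasi-likelihood fit of the group means, from which 7 contrasts were taken. SE is the absolute log2 fold change over the square root of F. Libraries carry no molecular identifiers, so the floor of 3 counts covers counting error only. Outside the 10 genes, each list and comparison could name up to 2 called genes with the largest rise and up to 2 with the largest fall, if the higher group averaged 5 TPM or more. KRT7, KRT18, the day 0 and day 3 calls of S100A4 and the markers KRT5, TP63 and TFAP2C were named outside this rule, after their values were seen. The genes and lists were chosen with earlier results of these data known. Alternatives were RLE scaling, DESeq2 1.42.0, other filters, fits to the groups compared, a replicate block, a lane term, limma 3.58.1 on log2(TPM + 1) or log2(TPM + 0.1), and leaving out each well. The steps were tested on simulated data.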

Additional observations from a re-analysis of the deposited data

Results flagged for a closer look

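In day 7 replicate 10, CLDN6 measured 157 CPM, and the next highest of the 5 day 7 wells measured 98.8 CPM, a gap that is large for the range of the group. The same well had the lowest log2 ratio of CDH2 to CDH1 TPM, 1.14, where the next lowest well had 1.92. Its pluripotency marker sum was 48.6 CPM against 4.15 to 6.96 in the other wells, and its TNFRSF12A, which shares exons with CLDN6, was 48.7 CPM against 22.8 to 28.6. The part of these in either value was not tested. In all, 44 combinations of group and measure were looked at in this way, only in groups of 5 wells. Chance alone marks about 1 in 20, and 2 stood out, both in day 7 replicate 10. The measures come from the same wells and are not independent.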

How the results depend on the processing

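The counts of the 10 genes called moved most where limma on log2 TPM, another unit and another method at once, took the place of edgeR on estimated counts. On log2(TPM + 1), day 0 against pluripotent cells called 0 genes in place of 2 (also 0 without a filter, but 2 with a pseudocount of 0.1), and day 1 against day 0 called 1 in place of 4 (also 1 with a pseudocount of 0.1 or without a filter). Day 5 against day 3 called 2 in place of 1 and day 90 against day 7 called 8 in place of 5, with either pseudocount. A fit to the groups compared called 4 genes at day 0. The CDH2 to CDH1 log2 ratio at day 3 was 1.59 from estimated counts and 1.84 from TPM.

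Leaving out 1 well in turn gave 2 called genes at day 0, 3 at day 1, 5 to 6 at day 3, 1 in each of the next 2 steps, 9 for day 7 against day 0 and 4 to 5 at day 90. Over all genes, day 0 against pluripotent cells called 669 genes, 1592 in a fit to these groups, 252 to 395 without 1 well and 22 to 48 on TPM. On TPM the other counts were 799 to 885 in place of 3102 (day 1), 1573 to 1857 of 4093 (day 3), 916 to 1146 of 2317 (day 5), 222 to 345 of 838 (day 7 against day 5), 2789 to 3571 of 6539 (day 7 against day 0) and 3839 to 5652 of 6813 (day 90). The share called higher moved on log2(TPM + 1) from 93.7% to 63.6% at day 0, from 28.5% to 52.7% at day 1, from 57.0% to 30.0% at day 5, from 53.4% to 38.0% for day 7 against day 0 and from 51.0% to 16.4% at day 90. TPM moved the median of all genes by 0.16, -0.30, -0.23, -0.29 and -0.53 at day 1, day 5, day 7 against day 5, day 7 against day 0 and day 90. The cause was not tested.

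Among the pairs compared, same-numbered wells shared little of their deviation from the group means. The mean correlation per comparison was -0.007 to 0.102, and single pairs ran from -0.08 to 0.26. With so few pairs this cannot settle whether wells of 1 number shared a batch, and the main fit took them as unpaired. No pair held replicate 10, so the replicate 10 wells of day 7 and day 9 were not compared with each other. Wells of the groups between day 7 and day 90 entered no pair. With the replicate block the calls among the 10 genes were 2, 4, 6, 1, 1, 9 and 5, as without it. Over all alternatives the adjusted p at day 0 ran from 2.7e-11 to 1 for ZEB1, 1.1e-14 to 0.86 for ZEB2, 0.0082 to 1 for TWIST1 and 0.0037 to 1 for SNAI2. At day 1 it ran from 0.0049 to 0.17 for SNAI1 and 0.0024 to 0.22 for TWIST1, at day 3 from 0.006 to 0.16 for TWIST1, and at day 5 from 0.0021 to 0.11 for CDH2. At day 90 it ran from 0.0092 to 0.15 for CDH1 and 0.00021 to 0.081 for SNAI2. Some steps that were not called also depended on the fit. The lowest adjusted p over the alternatives was 0.00014 for EPCAM at day 0, 8e-05 for CLDN6 at day 1 and 0.00045 for CDH1 at day 3. None of these steps was called in any alternative. No called gene of the 10 changed direction under any alternative. Depth limits ZEB1, ZEB2, TWIST1 and SNAI2 in pluripotent cells, which rest on 15 counts or fewer per library.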
